A study of Mus musculus with 9 samples.

Results

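The genes of excitation-contraction coupling and calcium storage were followed in regenerating mouse tibialis anterior muscle. These are Ryr1, Cacna1s and Stac3 of the release machinery, Jph1 and Jph2 of the membrane junction, Casq1 and Casq2 of calcium storage, the calcium pump inhibitors Sln and Pln, and the buffer Pvalb. Their 10 symbols were matched to Ensembl genes in the annotation, and all 10 were among the 54532 genes counted. The muscles came from young mice (4 months in the description of this experiment, 3 to 4 in the methods) and old mice (24 months, 24 to 26 in the methods) of the C57/BL6J strain, injured with barium chloride, a salt that kills muscle fibres and starts regeneration. After 3 injections of PBS or, in part of the old mice, of recombinant METRNL (rMETRNL), a protein secreted by macrophages and other cells, bulk RNA was sequenced in 3 libraries each of young PBS, old PBS and old rMETRNL muscle. All 3 groups carry the injury, and no uninjured and no young rMETRNL library was analysed here. The study's text gives whole muscle at day 8, while the labels give a cell suspension of damaged muscle and the series text gives day 4, and its dose of rMETRNL is in micrograms in one place and in nanograms in another.

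Muscle contracts when an action potential enters the transverse tubules and moves the voltage sensor Cacna1s, which opens the calcium release channel Ryr1 in the facing membrane of the sarcoplasmic reticulum, with Stac3 needed to link them. Junctophilins hold the tubule and the reticulum together, calsequestrins bind calcium inside the reticulum, and the pumps Atp2a1 and Atp2a2 bring it back under the restraint of small membrane peptides such as Sln and Pln. Parvalbumin (Pvalb) is a soluble calcium buffer that speeds relaxation of fast fibres. Fast fibres hold Casq1, and Casq2 is found in slow and developing fibres and in the heart.

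In the GRCm38 annotation Ryr1 is at chr7:29003344-29125179, Cacna1s at chr1:136052750-136119822, Stac3 at chr10:127501686-127508823, Jph1 at chr1:16964560-17097889 and Jph2 at chr2:163336242-163397993. Casq1 is at chr1:172209894-172219868, Casq2 at chr3:102086415-102146514, Sln at chr9:53850164-53854560, Pln at chr10:53337667-53345987 and Pvalb at chr15:78191114-78206400. All are protein coding, and their values count reads over the whole gene, so that transcripts of 1 gene were not told apart.

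The bases before the transcription start are given for the calsequestrin pair and for the most abundant member. Among the ratios between members given below, that of the calsequestrins spread most within old PBS. RefSeq sequences of GRCm38.p6 were matched for 7 of the 10 members, and the 250 bases upstream of the start were read. The windows are chr1:172219896-172220145 on the minus strand for Casq1, chr3:102086165-102086414 on the plus strand for Casq2 and chr15:78206401-78206650 on the minus strand for Pvalb. Capitals mark CANNTG, the letters bound by myogenic factors such as MyoD, and matches to the MEF2 motif, searched on both strands and not overlapping here.
Casq1: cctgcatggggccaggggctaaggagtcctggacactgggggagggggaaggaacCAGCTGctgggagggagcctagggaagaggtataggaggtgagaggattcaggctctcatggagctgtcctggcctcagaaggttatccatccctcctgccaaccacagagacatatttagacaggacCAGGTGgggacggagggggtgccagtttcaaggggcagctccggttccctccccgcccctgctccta
Casq2: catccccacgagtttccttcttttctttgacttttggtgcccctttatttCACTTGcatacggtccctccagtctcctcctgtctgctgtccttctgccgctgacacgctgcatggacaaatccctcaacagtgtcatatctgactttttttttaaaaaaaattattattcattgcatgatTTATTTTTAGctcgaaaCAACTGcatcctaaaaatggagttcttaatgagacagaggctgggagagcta
Pvalb: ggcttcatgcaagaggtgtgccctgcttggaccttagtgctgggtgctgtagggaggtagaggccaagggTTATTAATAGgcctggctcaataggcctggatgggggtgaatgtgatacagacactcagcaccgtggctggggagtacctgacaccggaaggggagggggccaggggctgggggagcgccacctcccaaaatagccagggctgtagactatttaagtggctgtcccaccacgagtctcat
Casq1 had 2 CANNTG matches, of which 1 was CAGCTG, and no MEF2 match. Casq2 had 2 CANNTG matches and 1 MEF2 match, and Pvalb had 1 MEF2 match and no CANNTG in this window. Pvalb has another annotated start, whose sequence is not printed. Its window, chr15:78204238-78204487 on the minus strand, had 1 CANNTG match and no MEF2 match. CAGCTG also occurred upstream of Cacna1s and Jph2. Among 32851 upstream windows of the same length, 13% held CAGCTG, 66.2% held CANNTG and 2.92% held the MEF2 motif, so a CANNTG match is common. Such a match is a description of letters and not evidence of binding.

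The libraries held 16238700 to 22522560 counts, and a count of 3, taken as the floor, stood for 0.131 to 0.202 CPM, the count scaled to library size with TMM factors. That floor was a fixed choice and not an estimate from these data. The labelled tissue was checked against its markers. The 11 genes of mature fast fibres listed were above the floor in every library. They took 9.27% to 11.9% of the counts, and Acta1, skeletal actin, alone took 2.1% to 2.86%. Of these 11 genes, Tnnc2 had only 19 to 56 counts, and 74% of its exon bases are shared with exons of Ube2c. The part of the shared exons in its level was not tested. Old PBS 3 stood apart from the other libraries. Its mature fibre genes summed to 79750 CPM against 103860 to 139329 CPM elsewhere, and its 6 genes of newly formed fibres (Myh3, Myh8, Myog, Mymk, Mymx and Actc1) to 4502 CPM against 543.2 to 2127. Of 6 slow fibre genes, the troponins Tnni1, Tnnt1 and Tnnc1 were highest in old PBS 3 (330, 157.5 and 58.5 CPM), while slow myosin Myh7 and the light chain Myl2 were not (9.32 and 3.76 CPM) and the light chain Myl3 was at its lowest there (6.39 CPM). All 3 old PBS libraries, and no library of another group, also held 8 of 8 brain markers above the floor, summing to 101.8, 46.03 and 111.3 CPM against 0.724 to 1.78 CPM elsewhere, and 4 of 4 liver markers, which were at 0 in young PBS and at or under the floor in old rMETRNL. Because old PBS 3 stood apart, member folds that involve old PBS are given with and without it. Folds of the partner genes and pumps, given further below, were taken with all 3 old PBS libraries. Leaving out old PBS 3 does not check for the brain and liver transcripts. All 3 old PBS libraries held them, and the brain sum was lowest in old PBS 3. In bulk RNA, fewer muscle cells and less RNA per cell cannot be told apart.

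Per kilobase of exon the members spanned a wide range. Exon length was the union of all annotated exons of a gene, which need not be the length of the transcript present. The order of genes close in level therefore depends on the annotation. Pvalb was the highest at a mean of 7036 CPM per kb over the 9 libraries, followed by Casq1 at 1499 CPM per kb. Both were separated from the next gene without overlap of their ranges, and Pvalb made up 32.8% to 57.9% of all counts on the 10 members. Jph2 (164.5 CPM per kb), Ryr1 (127.8), Cacna1s (97.26), Casq2 (79.97), Jph1 (77.91), Stac3 (65.36) and Sln (60.93) followed, and from Jph2 to Sln each gene overlapped the next in range. Within libraries the order was steadier for some of these pairs than the ranges show, since Ryr1 exceeded Cacna1s in 9 of 9 libraries, Jph2 exceeded Ryr1 in 8 of 9 and Casq2 exceeded Jph1 in 4 of 9. Pln, the pump inhibitor of heart and slow muscle, was at the bottom with 0.0745 CPM per kb. Of its exon bases 64.7% are shared with exons of other genes, so its place in the order is uncertain. The 10 genes together took 1.2% of the counts in old PBS 3 and 1.38% to 1.74% in the others. Pvalb alone took 0.394% in old PBS 3 and 0.583% to 0.959% in the others. The release, storage and junction genes in old PBS 3 (0.361%, 0.324% and 0.102%) lay within the range of the other libraries. The share of Sln and Pln together was highest there (0.0186%).

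None of the members passed the test in any comparison. Groups were compared on 6 libraries with edgeR's quasi-likelihood test, a model fitted over all genes, at a Benjamini-Hochberg adjusted p under 0.05, and 9 of the 10 members were high enough to be tested. Between old PBS and young PBS 0 of 9 were called, where 0.0643% of all 15560 genes were. Between old rMETRNL and old PBS 0 of 9 were called against 0.108% of 15682 genes, and between old rMETRNL and young PBS 0 of 9 against 0.0% of 15396 genes. At an unadjusted p under 0.05 edgeR again counted 0 members in each comparison, against 5.91%, 8.07% and 2.41% of all genes, and the smallest unadjusted p of any member was 0.176. DESeq2 also called 0 members, and had 0 at an unadjusted p under 0.05. With so few genes called in all, these counts read no differently for the members than for the background.

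**Figure D1:**
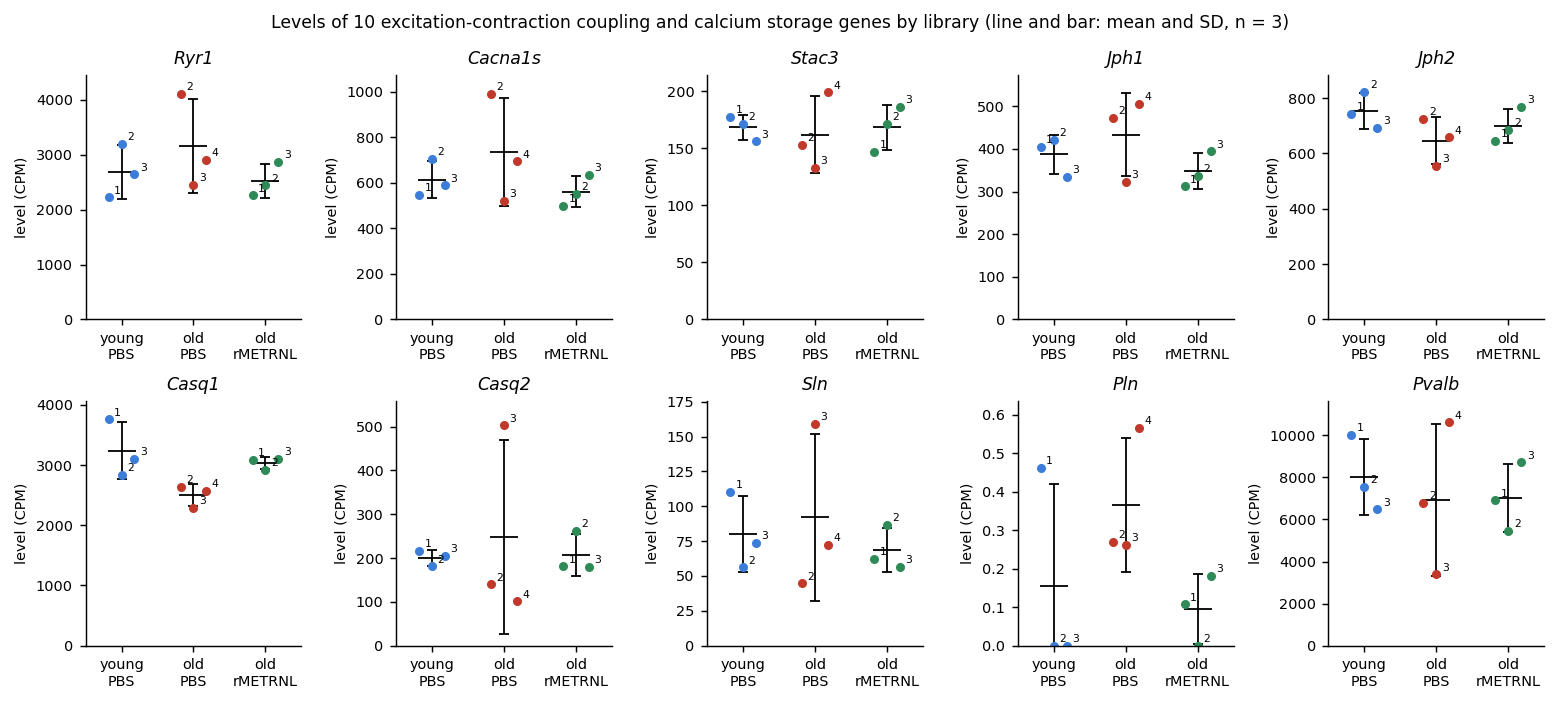
Levels of the 10 genes in CPM (y axes from 0, linear) in the young PBS, old PBS and old rMETRNL libraries, numbered as in the labels, with the mean and SD (n = 3) as a line and bar. In old PBS, library 3 is the highest for Casq2 and Sln and the lowest for 7 other tested genes.

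Ryr1, the release channel itself, was at 2227, 3198 and 2646 CPM in the young PBS libraries 1 to 3. It was at 4115, 2452 and 2910 CPM in old PBS 2, 3 and 4, and at 2264, 2442 and 2868 CPM in old rMETRNL 1 to 3. Old PBS 2 was the highest of the 9 libraries, and the groups overlapped. The fold between old PBS and young PBS was 1.17 (log2 0.23, SE 0.301, 95% interval of the fold 0.729 to 1.89, edgeR adjusted p = 0.994). Between old rMETRNL and old PBS it was 0.797 (0.506 to 1.26, edgeR adjusted p = 0.79). Leaving out old PBS 3 gave folds of 1.3 and 0.718 (edgeR adjusted p = 0.431 and 0.219), and without old PBS 2 the log2 fold change against young PBS was -0.0043.

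Cacna1s, the voltage sensor, was ordered almost like Ryr1. Its levels were 547.6, 705.4 and 589.9 CPM in young PBS, 990.2, 520.4 and 694.3 CPM in old PBS, and 499.5, 552 and 634.1 CPM in old rMETRNL. Old PBS 2 again held the highest value and the groups overlapped. The fold was 1.2 in old PBS over young PBS (log2 0.26, SE 0.276, 0.772 to 1.85, edgeR adjusted p = 0.994) and 0.762 in old rMETRNL over old PBS (0.498 to 1.17, edgeR adjusted p = 0.738). Leaving out old PBS 3 gave 1.37 and 0.666 (edgeR adjusted p = 0.288 and 0.109), and without old PBS 2 the first was -0.016 on the log2 scale. Of the exon bases of Cacna1s 20% are shared with another annotated gene, against 4.19% for Ryr1, and the strand setting of the counting is not given in the sources used here.

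Because the channel and its sensor work as a pair, their ratio per exon length was taken within each library, a ratio chosen after the values were seen. It was 1.22, 1.36 and 1.35 in young PBS, 1.25, 1.41 and 1.26 in old PBS, and 1.36, 1.33 and 1.36 in old rMETRNL. Across the 9 libraries Ryr1 spanned 1.85-fold and Cacna1s 1.98-fold, while their ratio spanned 1.16-fold. The log2 ratio differed by -0.0036 between old PBS and young PBS (exact permutation test, two-sided, p = 1.0), by 0.048 between old rMETRNL and old PBS (exact p = 0.4) and by 0.044 between old rMETRNL and young PBS (exact p = 0.7). Without old PBS 3 the first was -0.062 and the second 0.11 (exact p = 0.6 and 0.2). With 3 libraries against 3 this exact test cannot give a p under 0.1, and 9 such tests of ratios were made.

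Stac3, the adaptor that joins sensor and channel, was the steadiest of the release genes in young PBS, at 177.7, 171.5 and 156.1 CPM. It was at 153.2, 133.2 and 199.1 CPM in old PBS and at 146.7, 171.8 and 186.6 CPM in old rMETRNL. Old PBS 3 was the lowest and old PBS 4 the highest of the 9, so both ends of the range lay in 1 group. The fold was 0.959 between old PBS and young PBS (0.703 to 1.31) and 1.04 between old rMETRNL and old PBS (0.752 to 1.43), with edgeR adjusted p = 0.994 and 0.964. Both directions turned when old PBS 3 was left out, with folds of 1.04 and 0.955 (edgeR adjusted p = 0.885 and 0.855).

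Jph1, the junctophilin of skeletal muscle, was at 404.4, 421.7 and 335 CPM in young PBS. In old PBS it was at 472.5, 323.1 and 505.2 CPM, and in old rMETRNL at 312, 336.2 and 394.3 CPM. Old PBS 2 and 4 were above the other 7 libraries, while old PBS 3 was below all but old rMETRNL 1. The fold was 1.12 in old PBS over young PBS (log2 0.16, SE 0.231, 0.776 to 1.61, edgeR adjusted p = 0.994) and 0.799 in old rMETRNL over old PBS (log2 -0.32, SE 0.230, 0.557 to 1.15, edgeR adjusted p = 0.748). With old PBS 3 left out the folds were 1.26 and 0.71 (edgeR adjusted p = 0.327 and 0.109).

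Jph2, which the heart uses as its main junctophilin and skeletal muscle also expresses, was at 743.9, 822.1 and 693.5 CPM in young PBS. It was at 726.5, 555.4 and 658.3 CPM in old PBS and at 646.2, 685.8 and 768.4 CPM in old rMETRNL. Old PBS 3 was the lowest of the 9, and the groups overlapped. The fold was 0.858 between old PBS and young PBS (0.614 to 1.2, edgeR adjusted p = 0.994) and 1.08 between old rMETRNL and old PBS (0.775 to 1.5, edgeR adjusted p = 0.915). They were 0.916 and 1.01 when old PBS 3 was left out (edgeR adjusted p = 0.74 and 0.971).

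Taken as a ratio per exon length within each library, the junctophilins separated old PBS from both other groups. The Jph1 to Jph2 ratio was 0.463, 0.437 and 0.411 in young PBS, 0.554, 0.495 and 0.653 in old PBS 2, 3 and 4, and 0.411, 0.417 and 0.437 in old rMETRNL. All 3 old PBS libraries, old PBS 3 included, were above all 6 others. Of single genes tested, 10.5% did not overlap between old PBS and young PBS and 12.6% between old rMETRNL and old PBS. Such a share was not computed for ratios of 2 genes. The means were 0.437 ± 0.0258, 0.567 ± 0.0799 and 0.422 ± 0.0134 (SD, n = 3). The log2 ratio was higher by 0.37 in old PBS than in young PBS and differed by -0.42 between old rMETRNL and old PBS. Each gave p = 0.1 by the two-sided exact permutation test, the smallest p it can give, and an adjusted p of 0.45 over the 9 ratio tests, so neither passed. Without old PBS 3 the differences were 0.46 and -0.51 (exact p = 0.2 each). Old rMETRNL and young PBS differed by -0.05 on the log2 scale (exact p = 0.6).

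**Figure D2:**
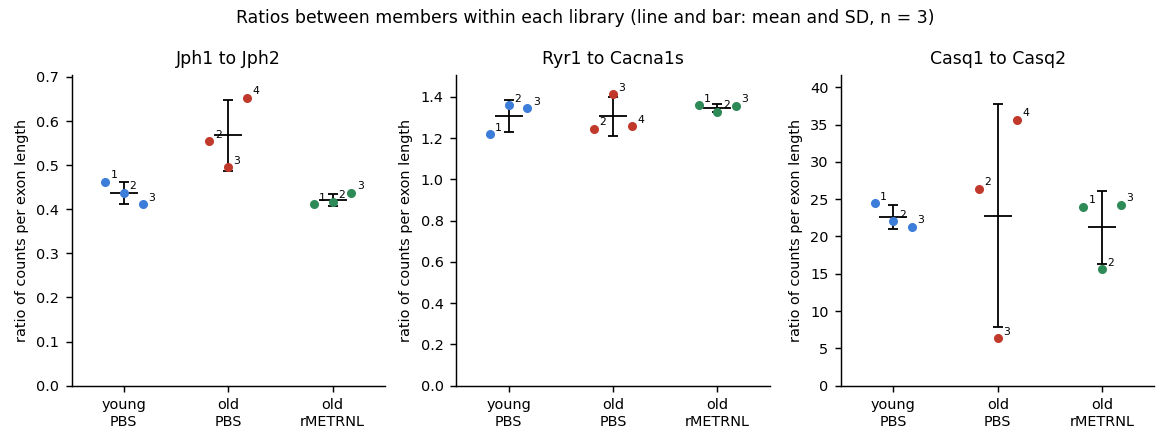
Ratios of counts per exon length within each library (y axes from 0, linear) for Jph1 to Jph2, Ryr1 to Cacna1s and Casq1 to Casq2, with the mean and SD (n = 3). The 3 old PBS libraries lie at 0.495 to 0.653 for Jph1 to Jph2, above the other 6, while Ryr1 to Cacna1s stays within 1.22 to 1.41.

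Casq1 was the only tested member whose level separated old PBS from another group without overlap. It was at 3763, 2843 and 3107 CPM in young PBS, at 2642, 2288 and 2572 CPM in old PBS 2, 3 and 4, and at 3090, 2922 and 3103 CPM in old rMETRNL. The 3 old PBS libraries were below the 6 others, by a narrow gap between old PBS 2 and young PBS 2. The fold was 0.771 in old PBS over young PBS (log2 -0.37, SE 0.254, 0.516 to 1.15, edgeR adjusted p = 0.994) and 1.21 in old rMETRNL over old PBS (log2 0.28, SE 0.242, 0.828 to 1.77, edgeR adjusted p = 0.79), so neither passed. These folds were 0.802 and 1.17 when old PBS 3 was left out (edgeR adjusted p = 0.444 and 0.526). Of all genes tested, 10.5% did not overlap between old PBS and young PBS and 12.6% between old rMETRNL and old PBS, and 1 of 9 members is near these shares. Between old rMETRNL and young PBS 6.87% of genes and 0 of 9 members did not overlap. Relative to the summed counts of the mature fibre genes, Casq1 was at 25 to 30.4 per 1000 in young PBS, 18.5 to 28.7 in old PBS and 27.7 to 29.7 in old rMETRNL and there the groups overlapped, with old PBS 3 at 28.7. On this scale only Jph1 did not overlap, between old rMETRNL (3.0 to 3.56 per 1000) and old PBS (3.63 to 4.05). The share of all genes that do not overlap on this scale was not computed. Old PBS 3 was the lowest library for Casq1 in CPM and also the lowest for the mature fibre genes, and the part of the fibre content in the level of Casq1 was not tested.

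Casq2 spread the most of the 9 tested members. It was at 215.9, 180.8 and 204.6 CPM in young PBS, at 140.4, 503.2 and 101.1 CPM in old PBS 2, 3 and 4, and at 180.7, 262.6 and 179.7 CPM in old rMETRNL. Old PBS held both ends, with old PBS 3 at 1.92 times the next highest library and the other 2 libraries below all of young PBS and old rMETRNL. The coefficient of variation of Casq2 reached 89.3% in old PBS, where young PBS had 8.94% and old rMETRNL 22.9%. With all libraries the fold was 1.24 in old PBS over young PBS (log2 0.31, SE 0.528, 0.537 to 2.85, edgeR adjusted p = 0.994). Without old PBS 3 the direction was the opposite, with a fold of 0.601 (log2 -0.74, edgeR adjusted p = 0.088), and old rMETRNL was at 1.72 times old PBS (log2 0.78, edgeR adjusted p = 0.059) in place of 0.834 times (edgeR adjusted p = 0.918). Neither passed, and without that library 2.52% of all genes passed between old PBS and young PBS and 9.76% between old rMETRNL and old PBS, with 0 of 9 members in each.

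The genes of newly formed fibres shared their lowest and highest libraries with Casq2. Their sum was lowest in old PBS 4 (543.2 CPM) and old PBS 2 (1176 CPM), which were also the lowest for Casq2, and highest in old PBS 3 (4502 CPM) and old rMETRNL 2 (2127 CPM), which were also the highest for Casq2. The libraries between did not keep one order, since young PBS 1 had the lowest sum of its group (1889 CPM) and the highest Casq2, and Myog and Mymx were highest in old rMETRNL 2. Embryonic myosin Myh3 was at 1258 CPM in old PBS 3, 55.5 CPM in old PBS 4 and 158 to 413 CPM in the other libraries. The slow troponins were also highest in old PBS 3, and Myl3, with 40.1 CPM in old PBS 4 and 6.39 CPM in old PBS 3, had the opposite order. The 5 heart markers together summed to 0.903 to 4.53 CPM, and Myl7 had 0 counts in all 9 libraries. Ryr2, the release channel of the heart and brain, had 31, 19 and 32 counts in old PBS 2, 3 and 4, 3 to 5 counts in young PBS and 0 in old rMETRNL. It did not pass with edgeR (adjusted p = 0.149 against young PBS and 0.0646 against old rMETRNL) and passed with DESeq2 (adjusted p = 0.0132 and 1.92e-05). The part of newly formed or slow fibres in the level of Casq2 was not tested.

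**Figure D3:**
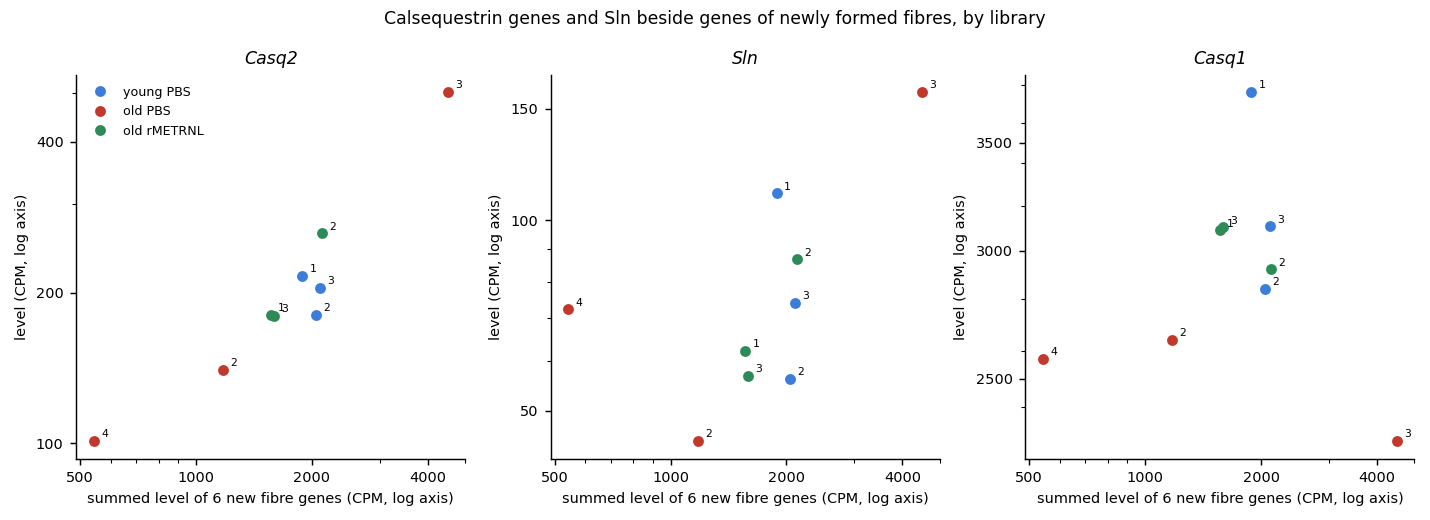
Levels of Casq2, Sln and Casq1 in each library (y axes, CPM, log scale) against the summed level of 6 genes of newly formed fibres (x axes, CPM, log scale), coloured by group and numbered as in the labels. Old PBS 4 and 2 lie at the low end and old PBS 3 at the high end of the x axis, with Casq2 at 101.1, 140.4 and 503.2 CPM.

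The Casq1 to Casq2 ratio followed the spread of Casq2. Per exon length it was 24.4, 22.1 and 21.3 in young PBS, 26.4, 6.38 and 35.7 in old PBS 2, 3 and 4, and 24, 15.6 and 24.2 in old rMETRNL. The group means were 22.6 ± 1.64, 22.8 ± 15 and 21.3 ± 4.9 (SD, n = 3), so that old PBS contained the lowest and the highest value around an average like that of young PBS. The exact permutation test gave p = 1.0 for both comparisons with old PBS and p = 0.8 between old rMETRNL and young PBS. The log2 ratio differed by -0.31 between old PBS and young PBS and by 0.20 between old rMETRNL and old PBS, and without old PBS 3 these turned to 0.44 and -0.56 (exact p = 0.2 each).

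Sln, a peptide that lets the pump spend ATP without moving calcium, was low and uneven. It was at 110.3, 56.2 and 74 CPM in young PBS, at 44.8, 159.3 and 72.3 CPM in old PBS, and at 62.3, 86.7 and 56.8 CPM in old rMETRNL. Old PBS 3 was at 1.44 times the next highest library and old PBS 2 was the lowest of all 9. The fold was 1.15 in old PBS over young PBS (0.573 to 2.31, edgeR adjusted p = 0.994) and 0.742 in old rMETRNL over old PBS (0.39 to 1.41, edgeR adjusted p = 0.802). Without old PBS 3 these folds were 0.727 and 1.17 (edgeR adjusted p = 0.429 and 0.586).

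Pln was barely detected. Young PBS 1, 2 and 3 had 8, 0 and 0 counts, old PBS 2, 3 and 4 had 4, 6 and 9, and old rMETRNL 1, 2 and 3 had 2, 0 and 4. In 4 of 9 libraries Pln was at or under the floor of 3 counts. It was left out by edgeR's filter and no fold is given. Of the exon bases of Pln 64.7% are shared with exons of Cep85l and Gm47644, of which Cep85l had 937 to 1691 counts, and reads from Pln and its neighbour cannot be told apart without the strand. For that reason no ratio of Sln to Pln is given.

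Pvalb, the cytosolic buffer, was at 10023, 7547 and 6471 CPM in young PBS. It was at 6788, 3386 and 10611 CPM in old PBS 2, 3 and 4 and at 6911, 5467 and 8711 CPM in old rMETRNL. Old PBS held the lowest and the highest library, and the groups overlapped. The fold was 0.863 in old PBS over young PBS (0.431 to 1.73, edgeR adjusted p = 0.994) and 1.01 in old rMETRNL over old PBS (0.511 to 2, edgeR adjusted p = 0.994). Without old PBS 3 they were 1.08 and 0.808 (edgeR adjusted p = 0.87 and 0.529). Pvalb is also a gene of inhibitory neurons, and the brain markers seen in old PBS summed to at most 111.3 CPM, with Gad1, which makes the transmitter of those neurons, at 0.219 to 5.16 CPM. The part of that signal in Pvalb was not tested.

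Old rMETRNL and young PBS, a comparison without old PBS 3, had the narrowest interval for each of the 9 members. Of the log2 fold changes 8 were negative and 1 was positive, with folds from 0.856 for Sln to 1.04 for Casq2, and every interval included 1. For Stac3 the fold was 1 (0.83 to 1.2), for Casq1 0.939 (0.741 to 1.19), for Jph2 0.93 (0.76 to 1.14) and for Ryr1 0.938 (0.721 to 1.22). For Cacna1s it was 0.915 (0.733 to 1.14), for Jph1 0.898 (0.728 to 1.11) and for Pvalb 0.877 (0.63 to 1.22). The 95% intervals together ran from 0.608 to 1.31, against 0.431 to 2.85 between old PBS and young PBS and 0.362 to 2 between old rMETRNL and old PBS. A p that misses the threshold does not show that the levels were alike, and these ranges give the folds the data leave possible. These 3 comparisons share their libraries in pairs, and their values are set side by side only as a description.

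**Figure D4:**
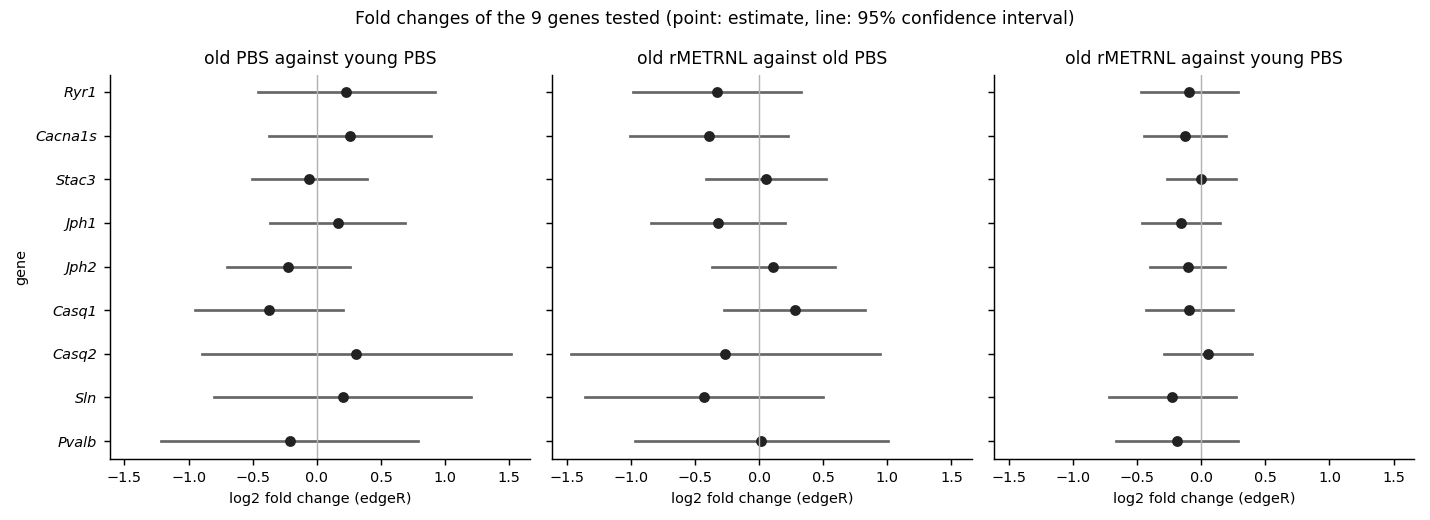
Log2 fold changes of the 9 tested genes (x axes, log2 units) with 95% confidence intervals from edgeR in the 3 comparisons. Every interval includes 0, and the intervals for old rMETRNL against young PBS are the narrowest.

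The spread between replicates was itself uneven. For 8 of 9 tested members the coefficient of variation was largest in old PBS, with a median over members of 27.2%, where young PBS had 13.3% and old rMETRNL 12.2%. Over all genes kept, the median was 25.6%, 14.5% and 12.7%, so the members followed the background. In CPM within old PBS, library 3 was the lowest for 7 members and the highest for Casq2 and Sln. For some members this order depends on the TMM factors, which were 0.915, 1.16 and 0.827 in old PBS 2, 3 and 4. Ryr1, Cacna1s and Stac3 together took 0.481%, 0.361% and 0.314% of the counts there, and Jph1 and Jph2 took 0.11%, 0.102% and 0.0961%. Both shares were lowest in old PBS 4, while Pvalb (0.62%, 0.394% and 0.876%) stayed lowest in old PBS 3. Median log2 fold changes over the 9 members were 0.16, -0.26 and -0.11 in the 3 comparisons, beside 0.014, -0.0056 and 0.00089 over all genes tested. With 1 library left out they ran from -0.016 to 0.11, from -0.30 to -0.066 and from -0.18 to -0.0010, so the first was below its full value in every case and took either sign. Of these, the first and the second without old PBS 3 were 0.058 and -0.066.

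The wider machinery gave the same count. Of the partner genes listed, Strit1 was not matched and the other 30 were tested, and 0 passed in any comparison by edgeR, with 0, 1 and 0 at an unadjusted p under 0.05. Their median log2 fold changes were 0.081 between old PBS and young PBS, -0.2 between old rMETRNL and old PBS and -0.092 between old rMETRNL and young PBS. The gene of each list with the largest value is named. Ryr3, the release channel of immature muscle, had the largest value among the release partners, at 2.6, 6.33 and 4.46 CPM in young PBS, 7.88, 9.54 and 4.22 CPM in old PBS and 2.52, 4.76 and 3.94 CPM in old rMETRNL. It was the 1 gene just counted, with a fold of 0.515 in old rMETRNL over old PBS (log2 -0.96, edgeR adjusted p = 0.527). The part of the brain transcripts of old PBS in the level of Ryr3 was not tested. Mrln, myoregulin, which inhibits the pump of fast fibres, was at 18.3, 15.4 and 8.13 CPM in young PBS, 14.8, 9.28 and 32.6 CPM in old PBS and 9.54, 6.62 and 13.3 CPM in old rMETRNL. Its fold in old rMETRNL over old PBS was 0.521 (log2 -0.94, edgeR adjusted p = 0.645), and old PBS 4 held the highest value.

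Groups did not overlap for 3 of the 30 partner genes between old PBS and young PBS and for 4 of 30 between old rMETRNL and old PBS, against the 10.5% and 12.6% of all genes. In the latter these were Cacng1 and Bin1, with negative log2 fold changes, and Cacnb1 (0.24) and Sypl2 (0.45), with positive ones. Cacng1, a subunit of the voltage sensor, had a log2 fold change of 0.29 in old PBS over young PBS and of -0.38 in old rMETRNL over old PBS (edgeR adjusted p = 0.994 and 0.663), and its old PBS and old rMETRNL libraries did not overlap, at 258 to 335 and 203 to 238 CPM. Bin1, which shapes the tubules, did not overlap there either, with a log2 fold change of -0.32 (edgeR adjusted p = 0.724), and in old PBS over young PBS the tubule gene with the largest value was Cav3, caveolin of muscle (log2 -0.23). Orai1, the channel of store-operated calcium entry, was at 34.6 to 38.7 CPM in old PBS and 41.8 to 50.2 CPM in young PBS, with a log2 fold change of -0.26 (edgeR adjusted p = 0.976). Hrc, a calcium binding protein of the reticulum, had log2 fold changes of 0.12 and -0.24 in these comparisons. Among the excitability genes the largest values belonged to the potassium channel Kcnj2 (log2 0.2) in old PBS over young PBS and to the sodium channel Scn4a (log2 -0.41) in old rMETRNL over old PBS, and neither passed. In old rMETRNL over young PBS the largest values of the lists were those of Kcnj12 (log2 -0.25), Cacna2d1 (-0.13), Srl (-0.12), Bin1 (-0.12), Orai1 (-0.096), Ryr3 (-0.26) and Mrln (-0.5).

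The pumps these peptides restrain were measured too. Atp2a1, the pump of fast fibres, was at 17332, 17498 and 14559 CPM in young PBS, 19130, 10721 and 22065 CPM in old PBS, and 13405, 13638 and 15950 CPM in old rMETRNL. Atp2a2, the pump of slow and developing fibres, was at 156.9, 195.8 and 203.4 CPM in young PBS, 196.8, 381.9 and 97.3 CPM in old PBS, and 141.9, 207.2 and 179.7 CPM in old rMETRNL. Their log2 fold changes were 0.07 and 0.28 in old PBS over young PBS (edgeR adjusted p = 0.996 and 0.994) and -0.28 and -0.36 in old rMETRNL over old PBS (edgeR adjusted p = 0.868 and 0.843). In CPM, old PBS 3 was the lowest library for the fast pump and the highest for the slow pump, as it was for Casq1 and Casq2. Old PBS 4 was the highest for the fast pump and the lowest for the slow pump.

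The genes whose profile lay nearest to the members were found by the root mean square difference of centred log2 CPM over 9 libraries, among 16124 genes kept. The mean profile of the members was nearly flat, with a root mean square of 0.0801, so the nearest genes were ones that hardly varied: Ppp3r1, Cct6a, Dusp22, Ccdc97 and Gpr108, with differences of 0.0387 to 0.0491. For single members the nearest genes were Tsc1 for Ryr1 (0.0556), Sox6 for Cacna1s (0.0603), Dmpk for Stac3 (0.0541), Sypl for Jph1 (0.0473) and Slc45a4 for Jph2 (0.0714). Further off were Zfp672 for Casq1 (0.0798), Sec61g for Pvalb (0.147), Tubb2b for Casq2 (0.167) and Zcchc3 for Sln (0.251). These are descriptions of likeness in 9 libraries.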

How the data were processed

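Bulk RNA of injured tibialis anterior muscle was measured in 9 libraries. The raw counts deposited by the authors are whole numbers of reads per Ensembl gene, not normalized. The kit was NEBNext Ultra and reads were paired-end. The submitters' processing notes name STAR, featureCounts and mm9, with no versions. The paper names DESeq2. Since the gene identifiers matched GENCODE M21 for 54495 of 54532 genes, symbols, coordinates and exon lengths were taken from it, on GRCm38.

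Groups were compared in pairs with edgeR 4.0.16 in R 4.3.3 (filterByExpr, TMM, glmQLFit and glmQLFTest, Benjamini-Hochberg over all genes, threshold 0.05). CPM used TMM factors of all 9 libraries. DESeq2 1.42.0, other filters and scalings, a fit of all libraries, a replicate block and each library left out were the alternatives. The scripts were tested on simulated data. Nothing in the labels says whether libraries came from separate animals, so p-values measure the spread between these libraries.

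All members were named, with the gene of largest change in each partner list, and the nearest profiles. The members and lists were chosen with earlier results of these data known. Acta1, Tnnc2, Myh3, Myog, Mymx, the slow fibre genes, Myl7, Ryr2, Cacnb1, Sypl2, Gad1, Cep85l, Atp2a1 and Atp2a2 were named after their values were seen.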

Additional observations from a re-analysis of the deposited data

How the results depend on the processing

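No member was called in any of 324 repeats of the member tests (9 members, 3 comparisons, 12 alternatives each), 300 of which kept the direction. The 24 with the opposite sign included Pvalb in old rMETRNL against old PBS with DESeq2 size factors (-0.0018) and Stac3 in old rMETRNL against young PBS without a filter (0.00067) and with at least 10 counts per library (0.0017), and 21 came from leaving out 1 library. Leave-one-out log2 fold changes in old PBS against young PBS ran from -0.46 to 0.53 for Sln, -0.0043 to 0.38 for Ryr1, -0.016 to 0.45 for Cacna1s, -0.24 to 0.058 for Stac3, -0.74 to 0.68 for Casq2 and -0.66 to 0.11 for Pvalb. In old rMETRNL against old PBS they ran from -0.066 to 0.22 for Stac3, -0.65 to 0.78 for Casq2, -0.76 to 0.23 for Sln and -0.31 to 0.45 for Pvalb. In old rMETRNL against young PBS they ran from -0.081 to 0.0895 for Stac3, -0.18 to 0.026 for Casq1, -0.43 to 0.071 for Sln, -0.22 to 0.051 for Ryr1 and -0.15 to 0.15 for Casq2. Apart from old PBS 3, whose values stand in the report, the cause was not tested.

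Genes called in old PBS against young PBS numbered 10, and 354 without a filter, 3 with at least 10 counts, 265 with DESeq2 and 63 in a fit of all libraries, and 2 to 401 with 1 library left out, the highest without old PBS 3. In old rMETRNL against old PBS they numbered 17, and 740, 1, 354 and 71 in the same order, and 3 to 1560, again highest without old PBS 3. In old rMETRNL against young PBS they numbered 0, 132 without a filter and 0 to 1. Libraries with the same replicate number had correlations of -0.316 to 0.412 in their deviations from the group means. Libraries with different numbers were not compared, so these values cannot decide whether the numbers pair the samples. With the replicate block the calls numbered 11, 65 and 0, no member was called, and the median log2 fold change of the members was 0.056 and -0.11 in the comparisons with old PBS.

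With 1 library left out, the median log2 fold change of the members ran from -0.016 to 0.11, -0.30 to -0.066 and -0.18 to -0.0010 in the 3 comparisons in the same order. Per count of mature fibre genes the median difference was -0.028, 0.14 and -0.012 log2 units, ran from -0.16 to 0.21, -0.27 to 0.25 and -0.054 to 0.054 with 1 library left out, and was 0.057 in the third comparison with Ckm alone as denominator. The log2 difference of the Casq1 to Casq2 ratio ran from -0.80 to 0.44, -0.56 to 0.69 and -0.22 to 0.095, and that of the Ryr1 to Cacna1s ratio, added after seeing the data, from -0.062 to 0.029 in the first and -0.0053 to 0.073 in the third. Without exon length the mean ratios were 16.1 in young PBS and 15.2 in old rMETRNL for Casq1 to Casq2, and 0.513, 0.667 and 0.495 for Jph1 to Jph2, since length only multiplies them by a constant. The Sln to Pln ratio was not varied because Pln was near the floor and shares exons with other genes. Pln was too low for a test, and low depth and reads lost to genes that share its exons cannot be told apart.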
